A study of Mus musculus with 8 samples.

Results

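Genes of glucose uptake, glycolysis and the response to low oxygen were followed in hair follicle cells of mice whose skin had been injured, with and without regulatory T cells (Treg cells). The group holds 10 named genes out of 46078 genes in the count table: Slc2a1, Hk2, Pfkp, Aldoa, Pgk1, Eno1, Pkm, Ldha, Vegfa and Bnip3. They have known roles in these processes and were found by their Ensembl identifiers, but they were chosen with earlier results of these data known. Shares of the 10 set beside shares of all genes below are therefore descriptions and not independent evidence. All 10 had counts in every library, and all 10 were among the 16495 genes that passed a filter on low counts and were tested.

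The cells were sorted from mouse epidermis by flow cytometry and carried the mark of an Lgr5 tracing allele. Lgr5 is expressed by stem cells of the lower hair follicle, and the mark is passed on to their progeny. The 8 libraries formed 2 conditions, Treg-depleted (n = 4) and Treg-sufficient (n = 4), and each condition was spread over experiment 2 (replicates 3 and 4) and experiment 1 (replicates 1 and 2). Every mouse, in both conditions, carried the strain Lg5-egfp-ires-creert2/R26-tdTomato, in which tamoxifen-activated Cre made in Lgr5-expressing cells switches on a red fluorescent reporter, and every mouse had received the skin injury. No uninjured group was analysed here, so the levels below are all levels after injury. The way in which Treg cells were removed, the kind of injury, the time after injury, the age of the mice and any sign that replicates came from separate animals were not given in the labels. The p-values therefore measure only how far these samples spread, and some of that spread may be technical.

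Glycolysis turns glucose into pyruvate in the cytosol, and lactate dehydrogenase turns pyruvate into lactate, which lets the pathway run when mitochondria take up little of the pyruvate. Hypoxia-inducible factors (HIF), which are stabilized when oxygen is low, bind near many of these genes and increase their transcription, together with that of Vegfa, the main growth signal for blood vessels, and of Bnip3, which directs mitochondria to degradation. In the mouse hair follicle, stem cells are known to rely on glycolysis and lactate production when they enter a new growth phase.

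Library totals over genes lay between 22330729 and 29975347 counts. The cell type label was set beside 12 markers of hair follicle stem cells and outer root sheath, all of which had counts in every library. So did 6 of 7 markers of differentiated interfollicular epidermis, 7 of 9 of fibroblasts and 5 of 5 of melanocytes. Presence alone therefore does not tell cell types apart. Lgr5 averaged 433 CPM (counts scaled to a common library size with TMM factors), Krt15 5727 CPM and Krt5 9051 CPM. Markers of differentiated interfollicular epidermis reached 324 CPM (Sbsn), 291 CPM (Krt10) and 279 CPM (Krt1). Ptprc, which marks all leukocytes, stayed at or below 0.404 CPM in every library. The values of Ptprc and Xist and all marker sums are CPM of library totals, without the TMM factors, which lay between 0.938 and 1.043. Some libraries stood apart from the others. Xist, the transcript of the inactive X chromosome, was at 72.0 CPM in Treg-depleted replicate 2 and 2713 CPM in Treg-sufficient replicate 2, against 0.968 to 2.26 CPM in the other 6 libraries. Treg-depleted replicate 2 and Treg-sufficient replicate 3 had counts for 18605 and 19593 genes, against 21720 to 23062 genes in the other 6 libraries. The pair with raised Xist is called the Xist-bearing libraries below. Several fold changes and counts of passing genes are also given without these libraries. Correlations, measures of spread, sums and count ratios are given for all 8 libraries only.

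Promoter sequences of 5 of the 10 genes are shown first, because HIF binds a short core motif in DNA and the genes differ in how often that motif lies next to their start. Each is the RefSeq sequence before a transcription start in GRCm38.p6, given 5′ to 3′ on the gene's own strand, with capitals where ACGTG or GCGTG occurs on either strand (read here as CACGT or CACGC when it lies on the other strand). A CACGTG run is a match on both strands and counts as 2. The windows are chr6:82774455-82774704 (minus strand) for Hk2, chrX:106186850-106187099 (plus strand) for Pgk1, chr7:46845554-46845803 (plus strand) for Ldha, chr17:46032378-46032627 (minus strand) for Vegfa and chr7:138909520-138909756 (minus strand) for Bnip3. The Bnip3 window is 237 bases long because bases inside an annotated exon were left out, and the others have 250 bases.
Hk2: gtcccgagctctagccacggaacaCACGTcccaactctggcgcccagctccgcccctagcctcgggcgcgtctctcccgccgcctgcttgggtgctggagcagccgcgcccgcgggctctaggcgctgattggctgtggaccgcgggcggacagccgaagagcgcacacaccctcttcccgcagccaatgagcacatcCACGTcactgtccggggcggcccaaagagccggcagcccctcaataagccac
Pgk1: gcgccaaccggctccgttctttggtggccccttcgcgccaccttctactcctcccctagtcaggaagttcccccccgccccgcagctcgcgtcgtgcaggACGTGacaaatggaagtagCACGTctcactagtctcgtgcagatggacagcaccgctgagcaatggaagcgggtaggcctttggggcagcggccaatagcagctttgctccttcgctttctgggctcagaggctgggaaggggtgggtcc
Ldha: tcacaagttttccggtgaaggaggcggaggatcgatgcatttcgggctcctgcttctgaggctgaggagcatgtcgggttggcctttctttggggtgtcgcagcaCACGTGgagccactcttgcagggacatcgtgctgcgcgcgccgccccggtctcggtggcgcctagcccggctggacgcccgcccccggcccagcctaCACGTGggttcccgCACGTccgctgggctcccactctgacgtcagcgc
Vegfa: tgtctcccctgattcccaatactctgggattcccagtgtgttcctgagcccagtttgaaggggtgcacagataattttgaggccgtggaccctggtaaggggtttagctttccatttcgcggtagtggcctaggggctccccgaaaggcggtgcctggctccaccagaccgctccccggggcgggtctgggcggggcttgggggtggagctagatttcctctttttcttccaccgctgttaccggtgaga
Bnip3: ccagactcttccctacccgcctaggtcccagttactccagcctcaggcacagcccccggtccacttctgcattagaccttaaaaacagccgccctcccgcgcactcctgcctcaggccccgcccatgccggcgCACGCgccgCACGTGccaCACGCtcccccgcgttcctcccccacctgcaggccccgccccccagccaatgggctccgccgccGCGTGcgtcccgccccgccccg
The Ldha and Bnip3 windows hold 5 matches each, and the Hk2 and Pgk1 windows hold 2 each. The Ldha start shown was picked because its window holds CACGTG, and a second annotated Ldha start has 1 match in the 250 bases before it. The Vegfa window holds 0 at this start, which says only that these letters are not in these bases. A second annotated Vegfa start inside the gene has 2 matches before it. Over windows of 300 bases around all annotated starts, 10 of the 10 genes had at least 1 match at 1 of their starts, against 46.7% of 27025 genes, and 8 of 10 had ACGTG itself, against 21.8% of those genes. The 10 genes have more annotated starts than most, and counted per window the share was 14 of 17 (82.4%), against 43.8% of 32851 windows, and for ACGTG 52.9%, against 19.6%. Both motifs contain CG, and the genes compared were not matched for base composition, so these shares do not measure an excess of HIF sites. A match describes the sequence and is not a measured binding site.

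Compared per kilobase of exon, the mean level over the 8 libraries ran from pyruvate kinase at the top to Vegfa at the bottom. Pkm, the pyruvate kinase that makes pyruvate, was highest at 144 ± 28.7 CPM per kb (SD, n = 8). Ldha, the main lactate dehydrogenase subunit of muscle and proliferating tissue, stood at 120 ± 43.1 and Aldoa, the aldolase that splits fructose bisphosphate, at 120 ± 42.3 CPM per kb. These 3 enzymes were close to each other, with Pkm above Ldha in 7 of 8 libraries and Ldha above Aldoa in 5 of 8. Below them came the enolase Eno1 at 64.3 ± 11.3 CPM per kb, the phosphoglycerate kinase Pgk1 at 50.4 ± 13.5 and the glucose transporter Slc2a1 at 37.3 ± 16.2. Aldoa was above Eno1, and Eno1 above Pgk1, in 8 of 8 libraries, but Pgk1 was above Slc2a1 in 6 and Slc2a1 above Hk2 in 5, so those neighbours did not separate. The lowest levels were those of the hexokinase Hk2 (21.9 ± 3.85 CPM per kb), the phosphofructokinase Pfkp (12.7 ± 3.57), Bnip3 (9.80 ± 3.69) and Vegfa (9.62 ± 5.35), of which Bnip3 was above Vegfa in 5 of 8 libraries. The exon length joins the exons of all annotated transcripts, which lowers this value for genes with long alternative exons.

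Several of these levels are understated. Reads that align to more than 1 place were not counted for any gene. Of the 50-base stretches of their transcripts, Pgk1 shares 53.9%, Bnip3 47.2%, Eno1 26.0% and Pkm 25.8% with transcripts of other genes. The share was 9.26% for Ldha, 6.43% for Aldoa, 5.10% for Pfkp, 1.54% for Slc2a1, 0.182% for Vegfa and 0% for Hk2. The order between Eno1, Pgk1 and Slc2a1 and that of Bnip3 are therefore uncertain.

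**Figure D1:**
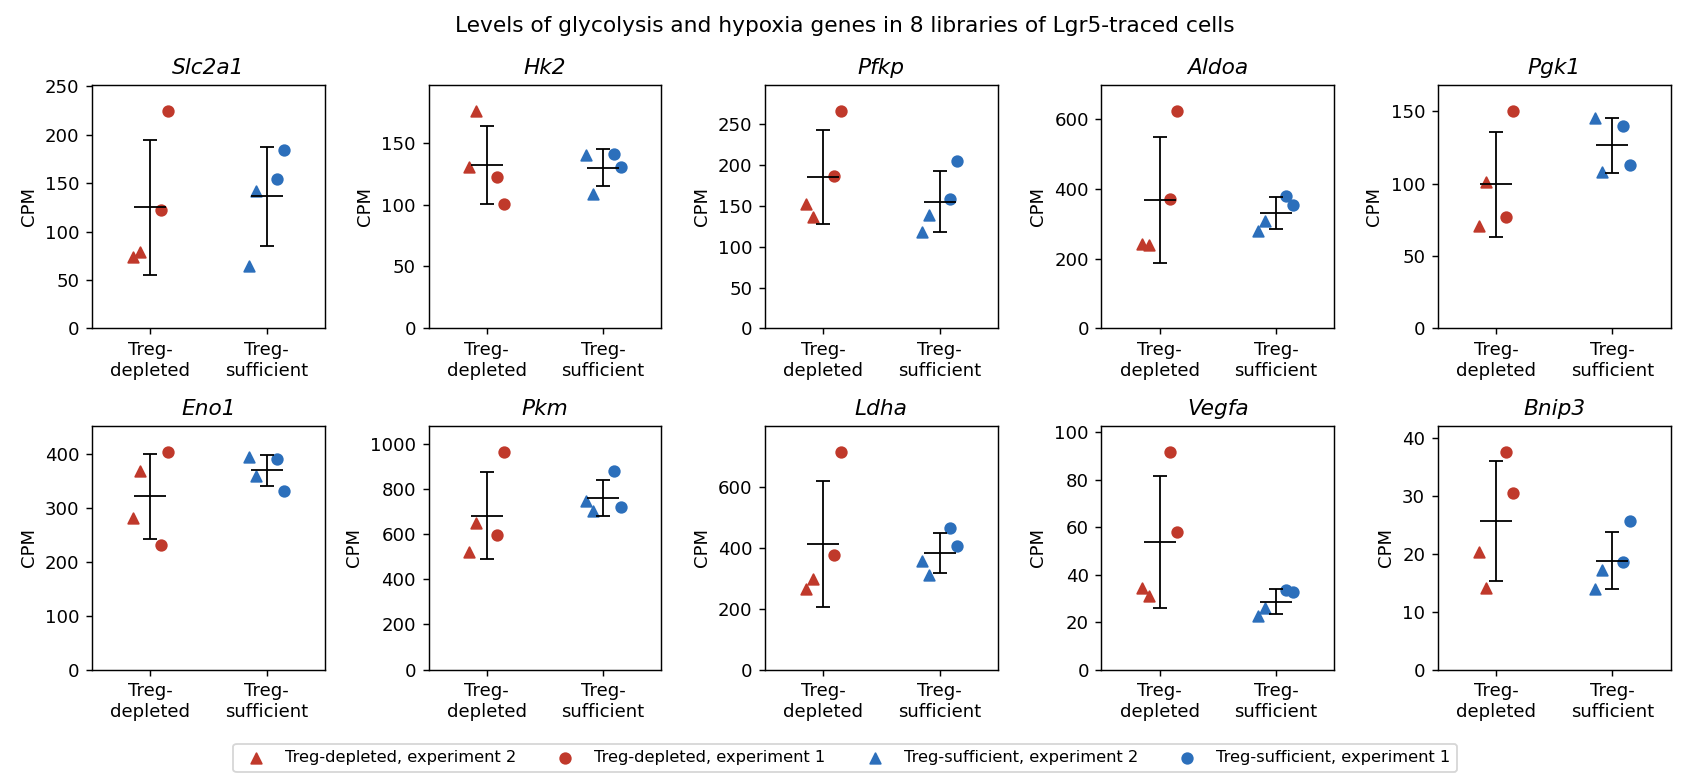
Level of each of the 10 genes in CPM (y axis, from 0) in Treg-depleted (left, red) and Treg-sufficient (right, blue) libraries, with triangles for experiment 2 and circles for experiment 1, and a bar at the mean ± SD over 4 libraries. Vegfa reaches 91.6 CPM in a Treg-depleted library and 33.4 CPM at most in a Treg-sufficient one, and for all 10 genes the ranges of the conditions overlap.

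Between conditions, none of the 10 genes passed the test, and the glycolytic genes lay on both sides of 0. Vegfa had the largest difference, with a mean in Treg-depleted libraries 1.75-fold that in Treg-sufficient libraries by the fitted model, and Bnip3 the next largest on the higher side. Of the 10, 0 passed edgeR's quasi-likelihood test at an adjusted p under 0.05, as did 0 of all 16495 genes (0.00%). At an unadjusted p under 0.05, 1 of the 10 (Vegfa) was called, against 7.12% of all genes. The median log2 fold change of the 10 genes was 0.02, against 0.002 over all genes tested. The conditions overlapped for each of the 10 genes, and over all genes 2.32% had conditions that did not overlap.

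Glucose uptake depends on Slc2a1, which encodes the transporter GLUT1 (ENSMUSG00000028645, GRCm38 chromosome 4, 119108711 to 119137983, plus strand). Slc2a1 was at 123, 225, 74.1 and 79.4 CPM in Treg-depleted replicates 1 to 4, against 155, 185, 64.4 and 142 CPM in Treg-sufficient replicates 1 to 4. The lowest library of all was Treg-sufficient and the highest Treg-depleted, so the conditions were interleaved. The log2 fold change was -0.20 ± 0.27 (SE; adjusted p = 0.876 by edgeR's quasi-likelihood test), with a 95% interval of -0.80 to 0.41. Without both libraries with few genes detected it was -0.68, and without Treg-sufficient replicate 4 it was 0.12.

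Hk2 encodes the inducible hexokinase, which traps glucose in the cell by phosphorylating it (ENSMUSG00000000628, GRCm38 chromosome 6, 82725025 to 82774454, minus strand). Its level was 122, 100, 130 and 176 CPM in Treg-depleted replicates 1 to 4 and 141, 130, 140 and 108 CPM in Treg-sufficient replicates 1 to 4. Both the highest and the lowest value belonged to Treg-depleted libraries, the highest in experiment 2 and the lowest in experiment 1. The means were 132 ± 31.6 CPM for Treg-depleted and 130 ± 15.1 CPM for Treg-sufficient libraries (SD, n = 4 each), with a log2 fold change of 0.01 ± 0.17 (SE; edgeR adjusted p = 0.997) and a 95% interval of -0.37 to 0.38.

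Pfkp encodes the platelet form of phosphofructokinase, at the committed step of glycolysis (ENSMUSG00000021196, GRCm38 chromosome 13, 6579768 to 6648777, minus strand). Its counts stood at 186, 266, 152 and 137 CPM in Treg-depleted replicates 1 to 4, against 158, 205, 118 and 139 CPM in Treg-sufficient replicates 1 to 4. In each condition the replicates of experiment 1 were the higher ones. The log2 fold change was 0.24 ± 0.14 (SE; edgeR adjusted p = 0.71). It was 0.04 without both libraries with few genes detected.

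Aldoa (ENSMUSG00000030695, GRCm38 chromosome 7, 126795234 to 126800751, minus strand) was at 370, 622, 241 and 239.9 CPM in Treg-depleted replicates 1 to 4, against 379, 353, 280 and 307 CPM in Treg-sufficient replicates 1 to 4. Ldha (ENSMUSG00000063229, GRCm38 chromosome 7, 46841475 to 46855627, plus strand) was at 376, 713, 263 and 297 CPM in Treg-depleted replicates 1 to 4, against 463, 406, 355 and 310.2 CPM in Treg-sufficient replicates 1 to 4. For both genes Treg-depleted replicate 2 lay far above the other 7 libraries, and the 2 lowest libraries were the Treg-depleted ones of experiment 2. The log2 fold change was 0.08 ± 0.20 for Aldoa (SE; edgeR adjusted p = 0.943) and 0.04 ± 0.21 for Ldha (SE; edgeR adjusted p = 0.979). Without both Xist-bearing libraries, of which Treg-depleted replicate 2 is one, the values were -0.22 for Aldoa and -0.28 for Ldha.

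Pgk1, Eno1 and Pkm, which carry out the steps between aldolase and pyruvate that yield ATP or lead up to it, had negative log2 fold changes. Pgk1 (ENSMUSG00000062070, GRCm38 chromosome X, 106187100 to 106203699, plus strand) was at 76.7, 150.3, 70.7 and 101 CPM in Treg-depleted replicates 1 to 4, against 140.1, 113, 146 and 108 CPM in Treg-sufficient replicates 1 to 4. 3 of its 4 Treg-depleted libraries lay under both Treg-sufficient libraries run in the same experiment, and the fourth lay above them. Its log2 fold change was -0.36 ± 0.23 (SE; edgeR adjusted p = 0.734), and -0.68 without both Xist-bearing libraries.
Eno1 (ENSMUSG00000063524, GRCm38 chromosome 4, 150236721 to 150248879, plus strand) stood at 232, 403, 282 and 369 CPM in Treg-depleted replicates 1 to 4 and at 391, 332, 395 and 360 CPM in Treg-sufficient replicates 1 to 4. Pkm (ENSMUSG00000032294, GRCm38 chromosome 9, 59656368 to 59679375, plus strand) stood at 594, 962, 521 and 648 CPM in Treg-depleted replicates 1 to 4 and at 877, 719, 745 and 701 CPM in Treg-sufficient replicates 1 to 4. The Treg-sufficient values of both genes lay inside the range of the Treg-depleted ones. Log2 fold changes were -0.20 ± 0.18 for Eno1 and -0.17 ± 0.17 for Pkm (SE; edgeR adjusted p = 0.797 and 0.82), and both were -0.41 without the Xist-bearing libraries.

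Vegfa encodes vascular endothelial growth factor A (ENSMUSG00000023951, GRCm38 chromosome 17, 46016993 to 46032369, minus strand). It was at 91.6, 58.0, 34.4 and 31.2 CPM in Treg-depleted replicates 1 to 4, against 33.4, 32.8, 22.6 and 25.9 CPM in Treg-sufficient replicates 1 to 4. Each of the 4 Treg-depleted libraries lay above both Treg-sufficient libraries of its own experiment, a pattern that 3.79% of all genes tested had. The opposite pattern was seen in 3.23% of them. The conditions as a whole overlapped, since the Treg-depleted libraries of experiment 2 were near the Treg-sufficient ones of experiment 1. The log2 fold change was 0.81 ± 0.20 (SE; unadjusted p = 0.00264, edgeR adjusted p = 0.686), with a 95% interval of 0.37 to 1.25. Across the 19 alternative analyses the value kept its sign and ranged between 0.58 (without Treg-depleted replicate 1) and 0.92 (without Treg-sufficient replicate 4). It passed in 2 of them, the DESeq2 test (adjusted p = 0.0397) and the edgeR test with no filter on low counts (adjusted p = 2.24e-05).

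Bnip3 encodes a receptor that marks mitochondria for degradation (ENSMUSG00000078566, GRCm38 chromosome 7, 138890836 to 138909519, minus strand). Its level was 37.5, 30.4, 20.4 and 14.2 CPM in Treg-depleted replicates 1 to 4, against 18.5, 25.6, 13.8 and 17.2 CPM in Treg-sufficient replicates 1 to 4. 3 of the 4 Treg-depleted libraries lay above both Treg-sufficient libraries of their experiment, and Treg-depleted replicate 4 lay between its 2. The log2 fold change was 0.39 ± 0.19 (SE; unadjusted p = 0.07, edgeR adjusted p = 0.696), and it stayed between 0.25 and 0.53 in the 19 alternatives without passing in any.

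A list of 10 immediate early and dissociation genes, which respond to stress and to handling of cells, was higher in sum in Treg-depleted libraries. The summed level was 7790, 5264, 5060 and 4000 CPM in Treg-depleted replicates 1 to 4, against 2095, 833, 2494 and 3286 CPM in Treg-sufficient replicates 1 to 4, so that these sums did not overlap between conditions. Treg-depleted replicate 1 was the highest of the 8 libraries for this sum, for Vegfa and for Bnip3, but among the Treg-sufficient libraries the sum was lowest in replicate 2, where Bnip3 was highest. Of the 10 listed genes 10 had a positive log2 fold change between conditions. Of these, 0 passed, as did 0 of all genes, but 10 of 10 had an unadjusted p under 0.05, against 7.12% of all genes. The part of this response in the Vegfa and Bnip3 values was not tested. The 6 markers of cycling cells summed to 1869 to 2154 CPM in Treg-depleted and 2013 to 2322 CPM in Treg-sufficient libraries of experiment 2, and to 322 to 655 CPM in Treg-depleted and 1261 to 1760 CPM in Treg-sufficient libraries of experiment 1. Over 8 libraries 6 of the 6 had negative log2 fold changes and 0 passed, while 4 of the 6 had an unadjusted p under 0.05. Their part was not tested either.
Summed markers of other cell types that can make Vegfa overlapped between conditions, as did Vegfa itself. Macrophage and Langerhans cell markers summed to 2.28 to 5.52 CPM in Treg-depleted libraries and 3.57 to 4.48 CPM in Treg-sufficient libraries. Neutrophil markers summed to 3.47 to 10.2 CPM (Treg-depleted) and 3.57 to 5.22 CPM (Treg-sufficient), highest in Treg-depleted replicate 2. Of the 4 neutrophil markers tested 3 had positive log2 fold changes and 1 a negative one, with a median of 1.07. Of these 4, 0 passed and 0 had an unadjusted p under 0.05. Fibroblast markers summed to 282 to 358 CPM (Treg-depleted) and 276 to 338 CPM (Treg-sufficient). The fibroblast sum is mostly Fbln1 (mean 243 CPM, log2 fold change 0.27 ± 0.14), while 5 of the 8 tested fibroblast markers had negative values, among them Dcn (-1.84 ± 0.54; SE, edgeR adjusted p = 0.696 and 0.686), and the median of the 8 was -0.56. In bulk RNA of this kind, fewer cells of a type and less RNA per cell cannot be told apart. The part of these cell types in the Vegfa values was not tested.

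**Figure D2:**
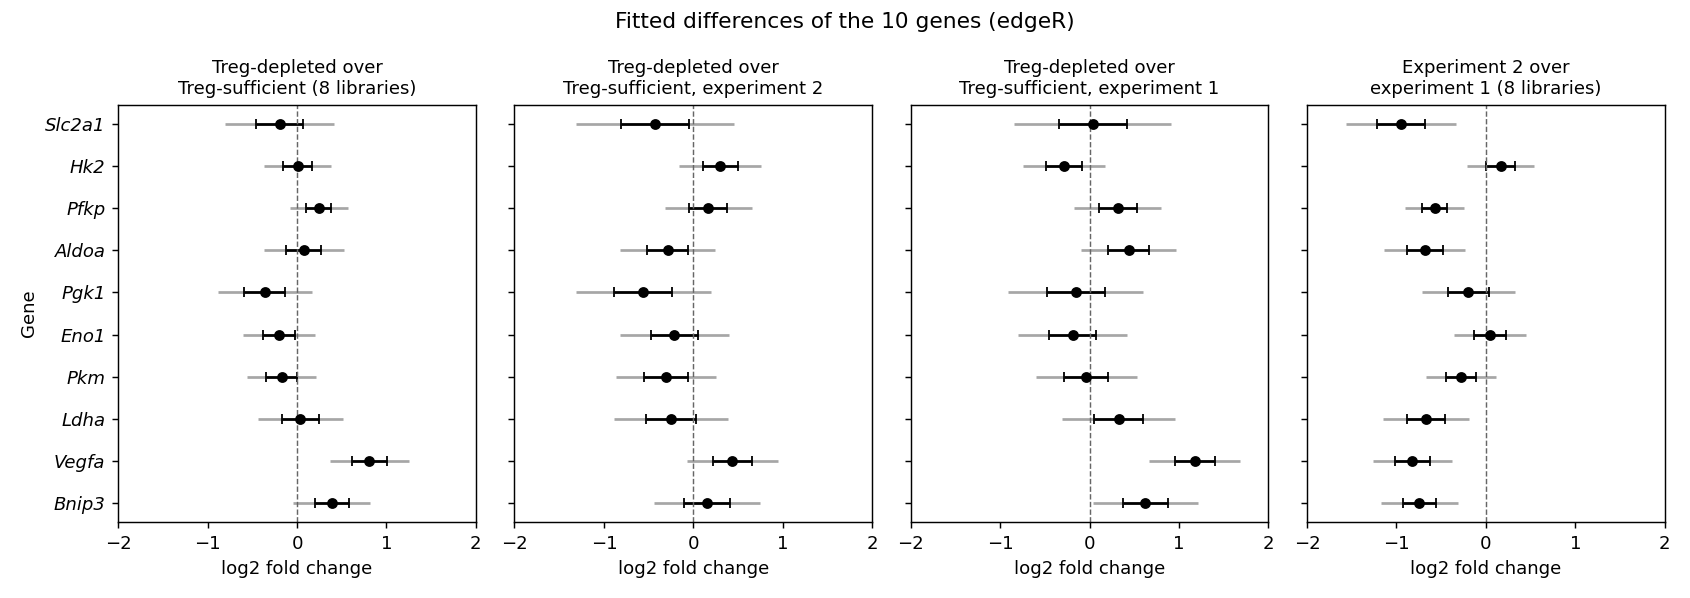
Log2 fold change of each gene (x axis) from edgeR, with black bars for ± SE and grey lines for the 95% interval, for Treg-depleted over Treg-sufficient in all 8 libraries, in experiment 2 and in experiment 1, and for experiment 2 over experiment 1. Vegfa is the one gene whose interval lies above 0 between conditions over 8 libraries (0.37 to 1.25), and the intervals of 6 genes lie below 0 between experiments.

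Within each experiment, the difference between conditions in Vegfa had the same sign in both and was larger in experiment 1. In experiment 2 Vegfa averaged 32.8 ± 2.28 CPM with Tregs depleted and 24.2 ± 2.35 CPM with Tregs sufficient (SD, n = 2 each), a log2 fold change of 0.43 ± 0.22 (SE; edgeR adjusted p = 1). In experiment 1 it averaged 74.8 ± 23.8 CPM with Tregs depleted and 33.1 ± 0.396 CPM with Tregs sufficient (SD, n = 2 each), a log2 fold change of 1.18 ± 0.22 (SE; edgeR adjusted p = 0.066). The experiment 1 value passed in 5 of 15 alternatives, among them the analyses without Treg-depleted replicate 2 (1.44, adjusted p = 0.012), without both Xist-bearing libraries (1.41, adjusted p = 0.0244) and without both with few genes detected (1.47, adjusted p = 0.016), and it was 0.79 without Treg-depleted replicate 1. The difference between the 2 experiments was -0.74 ± 0.31 (SE, experiment 2 minus experiment 1; unadjusted p = 0.0433, edgeR adjusted p = 0.862), so a different response in the experiments was not established. At an unadjusted p under 0.05 this was the 1 of the 10 genes called for that difference, against 5.60% of all genes. The immediate early and dissociation list also had a larger difference in experiment 1. In experiment 2 its median log2 fold change was 0.58 and 0 of 10 passed. In experiment 1 the median was 2.06. There 4 of 10 passed as higher (Jun, Dusp1, Egr1 and Ier2), against 0.224% of all genes. The difference between experiments was negative for 10 of 10, of which 0 passed. Cycling markers had medians of -0.20 in experiment 2 and -1.54 in experiment 1, with 0 of 6 passing in each. At an unadjusted p under 0.05, 0 of 6 were called in experiment 2 and 6 of 6 in experiment 1, against 1.75 and 11.1% of all genes. The part of either list in the Vegfa values was not tested.

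Several glycolytic genes had opposite signs in the experiments, none of which passed. Aldoa was at -0.29 ± 0.23 in experiment 2 and 0.44 ± 0.23 in experiment 1, and Ldha at -0.25 ± 0.28 in experiment 2 and 0.32 ± 0.28 in experiment 1 (log2 fold changes ± SE). Hk2 ran the other way, at 0.30 ± 0.20 in experiment 2 and -0.29 ± 0.20 in experiment 1. The differences between experiments were -0.72 ± 0.32 for Aldoa, -0.57 ± 0.39 for Ldha and 0.59 ± 0.28 for Hk2 (SE; edgeR adjusted p = 0.905, 0.96 and 0.921). The positive experiment 1 values rest on Treg-depleted replicate 2: without that library they were -0.02 for Aldoa and -0.25 for Ldha, and without Treg-sufficient replicate 2 they were 0.35 and 0.20.
Of the 10 genes, 0 passed in either experiment or for the difference between them. All genes tested gave 0.00% passing in experiment 2, 0.606% in experiment 1 and 0.00% for the difference. In experiment 2, 1 of the 10 (Vegfa) lay above without overlap and 4 (Aldoa, Pgk1, Pkm and Ldha) below, against 16.7 and 15.9% of all genes. In experiment 1, 2 (Vegfa and Bnip3) lay above and 1 (Hk2) below, against 18.6 and 19.0%. With 2 libraries on each side, such a split is frequent among all genes. Of the 10 genes, only Vegfa was split in the same direction in both experiments. Of all genes tested, 3.79% were split above in both experiments and 3.23% below in both.

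Between experiments 8 of the 10 genes had negative values, lower in experiment 2, though none passed. At an adjusted p under 0.05, 0 of the 10 genes passed, against 1.62% of all genes. At an unadjusted p under 0.05, 6 of the 10 (Slc2a1, Pfkp, Aldoa, Ldha, Vegfa and Bnip3) were called and all 6 were lower in experiment 2, while 10.6% of all genes were called lower and 11.4% higher. The median log2 fold change of the 10 genes, experiment 2 over experiment 1, was -0.62, against -0.020 over all genes tested. The experiments did not overlap for Pfkp, Aldoa and Ldha, which is 3 of 10 lower without overlap, against 5.86% of all genes. Since the 10 genes were chosen with earlier results of these data known, these shares only describe them.

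Slc2a1 averaged 89.9 ± 35.2 CPM in experiment 2 and 172 ± 43.5 CPM in experiment 1 (SD, n = 4 each), a log2 fold change of -0.95 ± 0.27 (SE; edgeR adjusted p = 0.0878). 3 of the 4 experiment 2 libraries lay between 64.4 and 79.4 CPM, and Treg-sufficient replicate 4, at 142 CPM, lay inside the experiment 1 range of 123 to 225 CPM. Pfkp ranged over 118 to 152 CPM in experiment 2 and 158 to 266 CPM in experiment 1, with a log2 fold change of -0.57 ± 0.14 (SE; edgeR adjusted p = 0.0705).
Aldoa ranged over 239.9 to 307 CPM in experiment 2 and 353 to 622 CPM in experiment 1 (-0.68 ± 0.20, edgeR adjusted p = 0.0917). Ldha ranged over 263 to 355 CPM in experiment 2 and 376 to 713 CPM in experiment 1 (-0.67 ± 0.21, edgeR adjusted p = 0.107). Slc2a1, Pfkp, Aldoa and Ldha thus had the same sign between experiments. Among other genes of the same families, Ldhb had a log2 fold change of 0.40 ± 0.13 and the glucose transporter Slc2a3 0.20 ± 0.23 (SE; edgeR adjusted p = 0.122 and 0.685). Pfkl and Aldoc were lower in experiment 2, as the 4 genes were. Pfkl averaged 31.1 ± 5.25 CPM in experiment 2 and 51.5 ± 13.9 CPM in experiment 1, and Aldoc 12.2 ± 2.94 and 18.4 ± 7.75 CPM (SD, n = 4 each). Without Treg-depleted replicate 2, the library with the highest values, the log2 fold changes were -0.70 for Slc2a1, -0.44 for Pfkp, -0.44 for Aldoa and -0.40 for Ldha (edgeR adjusted p = 0.15, 0.105, 0.0858 and 0.102).

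Vegfa and Bnip3 had the same sign as these 4 genes. Vegfa averaged 28.5 ± 5.28 CPM in experiment 2 and 53.9 ± 27.7 CPM in experiment 1 (SD, n = 4 each), a log2 fold change of -0.82 ± 0.20 (SE; edgeR adjusted p = 0.0644). Bnip3 averaged 16.4 ± 3.05 CPM in experiment 2 and 28.0 ± 7.99 CPM in experiment 1 (SD, n = 4 each), a log2 fold change of -0.74 ± 0.19 (SE; edgeR adjusted p = 0.072). For both the experiments overlapped, because the Treg-sufficient libraries of experiment 1 were near the Treg-depleted ones of experiment 2.
The other 4 genes did not separate the experiments. Hk2 averaged 138 ± 28.0 CPM in experiment 2 and 124 ± 17.3 CPM in experiment 1, and Eno1 352 ± 48.8 CPM in experiment 2 and 340 ± 78.2 CPM in experiment 1 (SD, n = 4 each). Pgk1 averaged 106 ± 30.7 CPM in experiment 2 and 120.0 ± 32.9 CPM in experiment 1, and Pkm 654 ± 96.7 CPM in experiment 2 and 788 ± 164 CPM in experiment 1 (SD, n = 4 each). Their 95% intervals on the log2 scale were -0.21 to 0.54 for Hk2, -0.35 to 0.45 for Eno1, -0.72 to 0.32 for Pgk1 and -0.66 to 0.11 for Pkm, which leave room for differences in either direction.

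The call for these 6 genes depended on the test. DESeq2 called the same 6, all lower in experiment 2, with adjusted p between 0.00294 (Vegfa) and 0.0277 (Ldha). It called 2133 of the 16495 genes tested, 938 of them lower. The quasi-likelihood test of edgeR called 268, of which 119 were lower. Marker sums differed between experiments as well. The 12 hair follicle and outer root sheath markers summed to 18950 to 23060 CPM in experiment 2 and 20580 to 33130 CPM in experiment 1. At an unadjusted p under 0.05, 8 of these 12 were called, against 22.0% of all genes, and 0 passed. Of the 12, 6 had negative and 6 positive log2 fold changes. Among the negative ones were Krt15 at -0.71 ± 0.21, Krt5 at -0.55 ± 0.18 and Cd34 at -1.63 ± 0.34 (SE; edgeR adjusted p = 0.0922, 0.112 and 0.053). Among the positive ones were Krt17 at 0.67 ± 0.23, Lhx2 at 0.50 ± 0.16 and Tcf3 at 0.33 ± 0.13 (SE; edgeR adjusted p = 0.132, 0.107 and 0.191). Cycling cell markers summed to 1869 to 2322 CPM in experiment 2 and 322 to 1760 CPM in experiment 1. Melanocyte markers summed to 112 to 360 CPM in experiment 2 and 19.2 to 52.4 CPM in experiment 1. Of those 5 markers, 3 passed as higher in experiment 2, against 0.903% of all genes. Markers of differentiated interfollicular epidermis summed to 451 to 956 CPM in experiment 2 and 626 to 1832 CPM in experiment 1. Of the 6 tested, 5 had negative log2 fold changes and 1 a positive one, with a median of -0.74. Only Krtdap passed, as lower in experiment 2 (-1.60 ± 0.24; SE, edgeR adjusted p = 0.0439), where 0.721% of all genes passed as lower. The part of these differences in the values of the 10 genes was not tested.

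**Figure D3:**
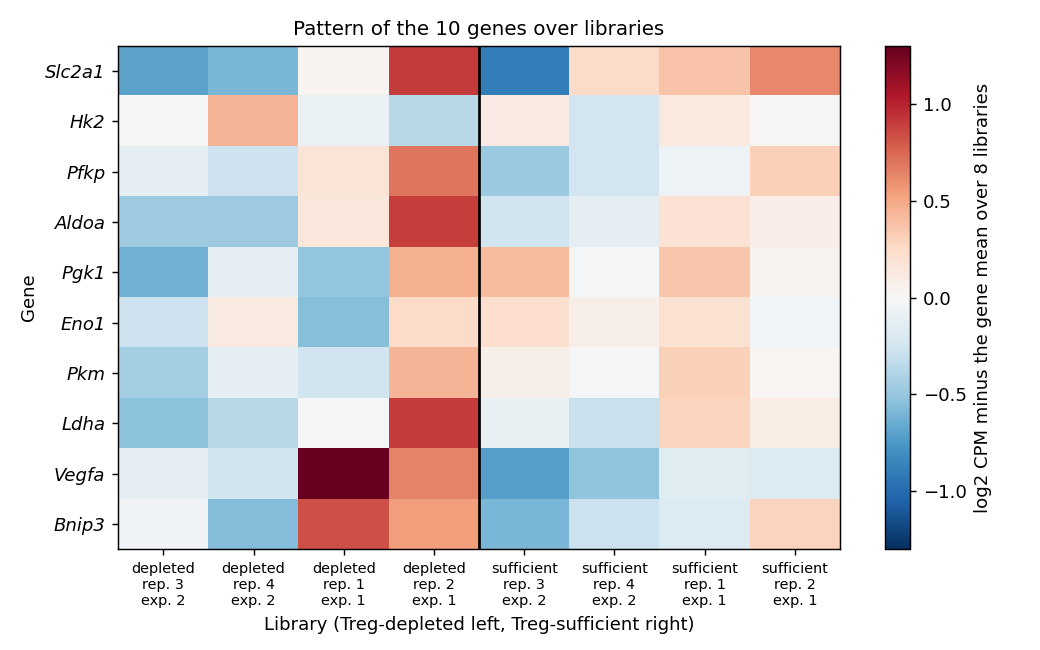
Log2 CPM of each gene in each library minus the gene's mean over the 8 libraries (colour, red above and blue below the mean), with Treg-depleted libraries left of the line, Treg-sufficient ones right of it, and experiment 2 left of experiment 1 in each. Treg-depleted replicate 2 is the reddest column and holds the highest value of 7 of the 10 genes, while its Hk2 value is the lowest of the 8.

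The 10 genes varied more between libraries than most genes did. The ratio of the highest to the lowest library was 4.06 for Vegfa, 3.49 for Slc2a1, 2.71 for Ldha and for Bnip3, 2.59 for Aldoa, 2.26 for Pfkp, 2.13 for Pgk1, 1.84 for Pkm, 1.75 for Hk2 and 1.74 for Eno1. The median coefficient of variation of the 10 was 31.7%, against 15.2% over the 10050 genes with a mean of at least 10 CPM. A large part of the spread lay in 1 library, Treg-depleted replicate 2, where the 10 genes summed to 3530 CPM, against 1789 to 2208 CPM in the other Treg-depleted libraries and 2218 to 2756 CPM in the Treg-sufficient ones. That library had the highest level of Slc2a1, Pfkp, Aldoa, Pgk1, Eno1, Pkm and Ldha. Treg-depleted replicate 1 had the highest Vegfa and Bnip3 and the lowest Eno1.

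Not all members followed each other over the libraries. Of the 45 pairs, 31 had a positive Pearson correlation of log2 CPM over the 8 libraries and 21 a correlation above 0.5, with a median of 0.405. The highest were 0.961 for Aldoa and Ldha, 0.932 for Pgk1 and Pkm and 0.900 for Vegfa and Bnip3. Vegfa was at -0.608 with Eno1 and -0.329 with Pgk1. Hk2 had a median of -0.501 with the other 9 genes, from the lowest value of all pairs, -0.682 with Aldoa, up to 0.073 with Eno1. All points come from the same 8 libraries, which also share their depth and preparation, so these values describe the libraries.

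Among 10036 other genes with a mean of at least 10 CPM, the 5 whose level most resembled the mean standardized log2 CPM of the 10 genes were Ddx24 (Pearson correlation 0.977 over 8 libraries), Prorsd1 (0.976), Tuba1c (0.975), Serpinb6a (0.974) and Slc16a1 (0.970), against a median of 0.0633 over those genes. Ddx24 encodes an RNA helicase, Tuba1c an alpha tubulin, Serpinb6a a serine protease inhibitor and Slc16a1 the lactate and pyruvate transporter MCT1. Tuba1c ranged over 47.3 to 134 CPM in Treg-depleted libraries and 58.9 to 83.0 CPM in Treg-sufficient libraries, and over 47.3 to 68.4 CPM in experiment 2 and 67.8 to 134 CPM in experiment 1.

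Other genes of the pathway were counted from lists set by known function, also with earlier results of these data known. Of 18 other glycolytic enzymes and lactate transporters, 0 rose and 0 fell between conditions, with 9 positive and 9 negative log2 fold changes and a median of 0.01. Gapdh, the most highly counted of them at a mean of 390 CPM, had a log2 fold change of -0.28 ± 0.22 (SE; edgeR adjusted p = 0.774), and 25.1% of its 50-base stretches occur in other genes. The lowest value was -0.63 ± 0.26 for Slc16a3, the lactate exporter MCT4, at 1.90 ± 0.521 CPM in the Treg-depleted group and 3.06 ± 1.32 CPM in the Treg-sufficient group (SD, n = 4 each; edgeR adjusted p = 0.694). The highest was 0.34 ± 0.27 for the aldolase Aldoc (SE; edgeR adjusted p = 0.775).
Between experiments 0 of the 18 rose and 1 fell in experiment 2, the hexokinase Hk1, while 0.721% of all genes passed as lower. Of the 18, 12 had negative and 6 positive log2 fold changes, with a median of -0.11. At an unadjusted p under 0.05, 6 of the 18 were called, against 22.0% of all genes. Hk1 was at 93.8 and 68.6 CPM in the Treg-depleted and 67.3 and 79.9 CPM in the Treg-sufficient libraries of experiment 2, against 132 and 147 CPM in the Treg-depleted and 99.4 and 122 CPM in the Treg-sufficient libraries of experiment 1. The experiments did not overlap, and the log2 fold change was -0.69 ± 0.13 (SE; edgeR adjusted p = 0.0483). The call ended without Treg-depleted replicate 2 or 4 or Treg-sufficient replicate 2, where 0 of all genes passed between experiments. Hk1 is the hexokinase found in most tissues, and it differed between experiments where the inducible Hk2 had a log2 fold change of 0.16 ± 0.17 (SE; edgeR adjusted p = 0.634).

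Of 10 HIF subunits and regulators 9 were tested, with 0 higher, 0 lower and a median log2 fold change of -0.09 between conditions. Hif1a, which encodes the oxygen-regulated subunit, averaged 223 ± 71.8 CPM in the Treg-depleted group and 227 ± 34.4 CPM in the Treg-sufficient group (SD, n = 4 each), a log2 fold change of -0.04 ± 0.21 (SE; edgeR adjusted p = 0.979). HIF activity is set mostly by protein stability, which these counts do not measure. The lowest value was that of Arnt2 (-0.93 ± 0.79, at a mean of 0.615 CPM) and the highest that of Egln3 (0.36 ± 0.32; SE, edgeR adjusted p = 0.788 and 0.797). Egln3, an oxygen-sensing hydroxylase that is itself a HIF target, averaged 16.7 ± 4.31 CPM in experiment 2 and 46.7 ± 24.0 CPM in experiment 1 (SD, n = 4 each), a log2 fold change of -1.48 ± 0.33 (SE; edgeR adjusted p = 0.0589) without overlap. Between experiments 0 of the 9 rose and 0 fell, with a median of -0.15.

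A list of 20 other HIF targets had 19 genes in the table under the listed symbol, all tested. Between conditions 0 rose and 0 fell, with 14 positive and 5 negative values and a median log2 fold change of 0.13, where 50.3% of all genes were positive. Car12, a cell-surface carbonic anhydrase and the highest of the list at a mean of 569 CPM, had -0.07 ± 0.24 (SE; edgeR adjusted p = 0.957). Car9, another such enzyme, had the lowest value (-0.33 ± 0.40) and Adm, the gene of the peptide adrenomedullin, the highest (0.75 ± 0.87; SE, edgeR adjusted p = 0.859 and 0.846), with means of 3.15 and 0.711 CPM.
Between experiments 0 of the 19 rose and 0 fell, with 12 negative and 7 positive values and a median of -0.29, where 52.7% of all genes were negative. Car12 averaged 400 ± 102 CPM in experiment 2 and 737 ± 190 CPM in experiment 1 (SD, n = 4 each), a log2 fold change of -0.89 ± 0.24 (SE; edgeR adjusted p = 0.0796).

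Genes for the routes away from lactate gave 0 rising and 0 falling of 15 between conditions, with 11 of 15 negative and a median log2 fold change of -0.06. Transketolase, Tkt, had the highest mean level, 322 CPM, and the lowest value (-0.28 ± 0.20), and the pyruvate dehydrogenase kinase Pdk4 the highest value (0.94 ± 1.05, at a mean of 0.753 CPM; SE, edgeR adjusted p = 0.761 and 0.838). Between experiments 0 of these 15 rose and 0 fell, with a median of -0.10.
Of 9 other genes of the VEGF family and its receptors 5 were tested, with 0 higher, 0 lower, 1 positive and 4 negative and a median of -0.42 between conditions. Nrp2, a co-receptor, had the highest mean level and the lowest value of this list. It averaged 135 ± 87.2 CPM in the Treg-depleted group and 196 ± 73.5 CPM in the Treg-sufficient group (SD, n = 4 each), a log2 fold change of -0.75 ± 0.31 (SE; edgeR adjusted p = 0.694). Vegfd, a lymphatic growth factor of the family, had the highest value, at 10.6, 11.2, 5.27 and 2.56 CPM in Treg-depleted replicates 1 to 4, against 4.54, 5.91, 2.75 and 2.55 CPM in Treg-sufficient replicates 1 to 4. The conditions overlapped, and the log2 fold change was 0.82 ± 0.27 (SE; unadjusted p = 0.0134, edgeR adjusted p = 0.686). Between experiments 0 of the 5 rose and 0 fell, with a median of 0.58.

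**Figure D4:**
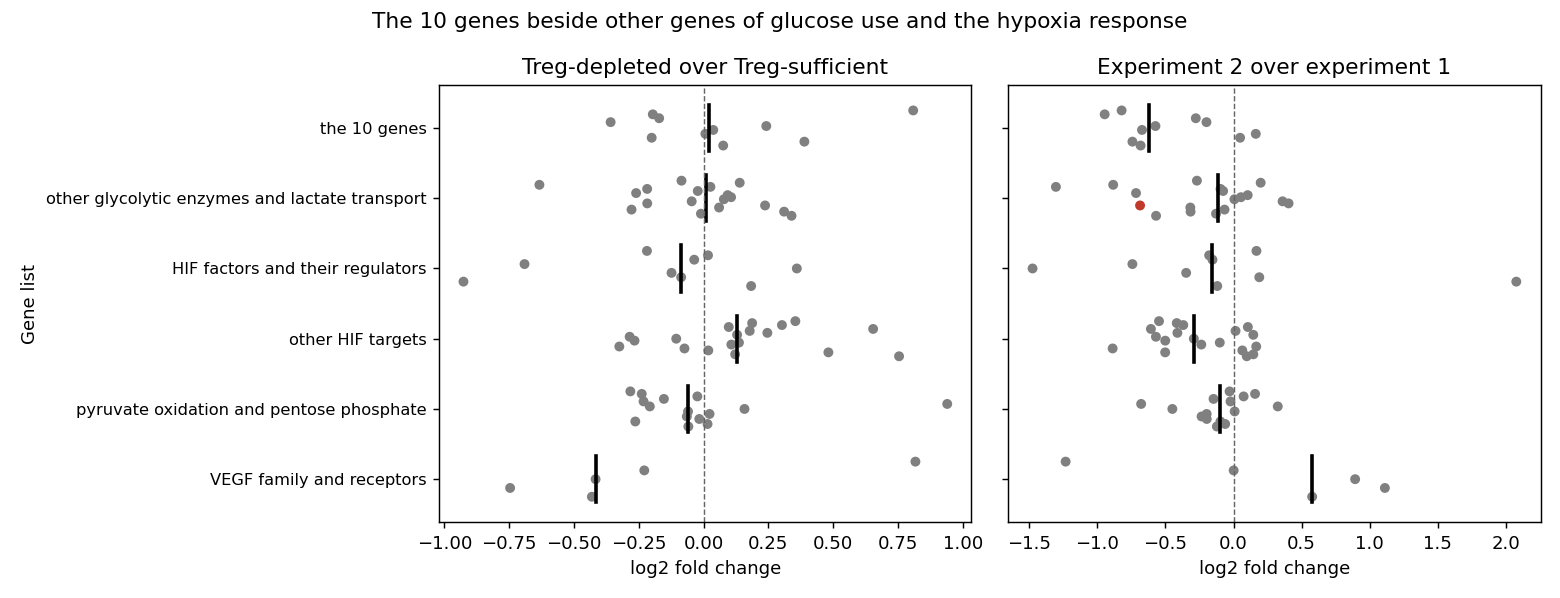
Log2 fold change (x axis) of every tested gene of each list, with a black bar at the list's median and red for genes with an adjusted p under 0.05, for Treg-depleted over Treg-sufficient (left) and experiment 2 over experiment 1 (right). The median of the 10 genes is 0.02 between conditions and -0.62 between experiments, and Hk1 is the one red point.

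Ratios between paralogous genes compare both members within a library, and they were chosen with the data in view, so they are given without a test. Ldha makes the lactate dehydrogenase subunit that favours lactate production and Ldhb the one that favours pyruvate. The Ldha to Ldhb count ratio was 4.68 and 4.57 in the Treg-depleted and 4.58 and 5.53 in the Treg-sufficient libraries of experiment 2, against 7.77 and 18.6 in the Treg-depleted and 8.47 and 7.84 in the Treg-sufficient libraries of experiment 1. The experiments did not overlap, and the conditions did. Treg-depleted replicate 2 held the value of 18.6.
The Hk2 to Hk1 ratio was 1.36 to 2.56 in experiment 2 and 0.683 to 1.42 in experiment 1, with a slight overlap, and the Bnip3 to Bnip3l ratio was 0.111 to 0.170 in experiment 2 and 0.162 to 0.287 in experiment 1. Bnip3l is another mitochondrial degradation receptor, and its own log2 fold change was 0.06 ± 0.09 between experiments and 0.02 ± 0.09 between conditions (SE; edgeR adjusted p = 0.747 and 0.975). Bnip3 varied more than its paralogue did, with a difference of -0.74 between experiments on the same scale. The Pfkp to Pfkl ratio was the one that separated the conditions, at 4.65 to 5.85 in Treg-depleted and 2.47 to 4.46 in Treg-sufficient libraries, while neither gene passed on its own (Pfkl -0.26 ± 0.20, edgeR adjusted p = 0.773).

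**Figure D5:**
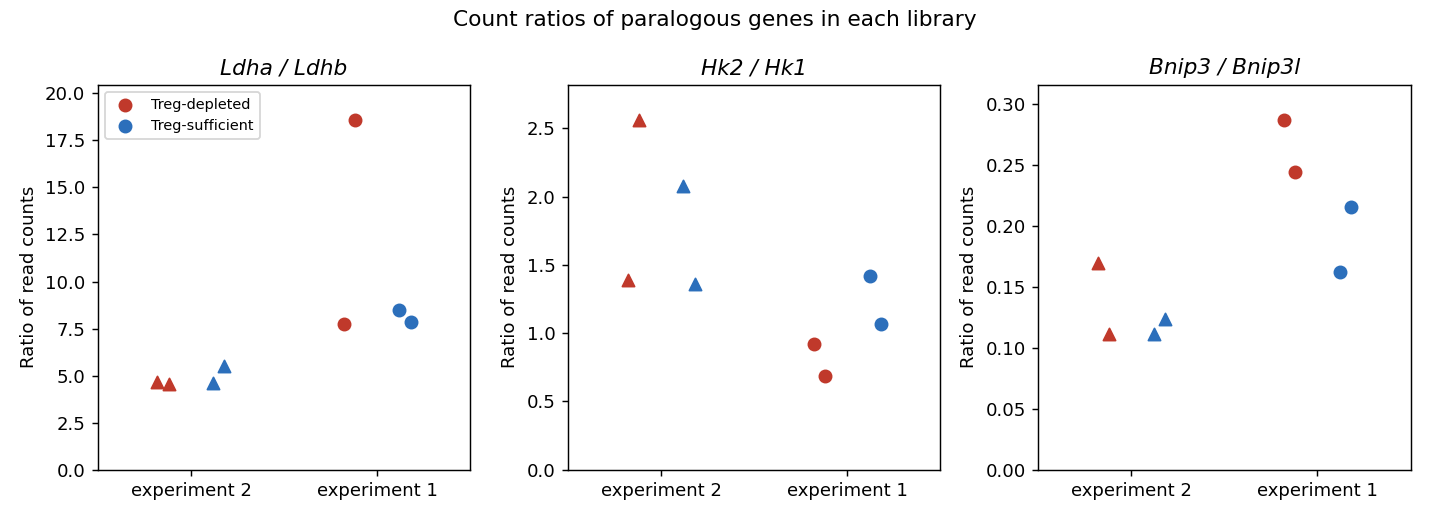
Ratio of read counts of paralogous genes (y axis, from 0) in each library, by experiment (x axis, experiment 2 left), with Treg-depleted in red and Treg-sufficient in blue. The Ldha to Ldhb ratio lies between 4.57 and 5.53 in experiment 2 and between 7.77 and 18.6 in experiment 1.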

How the data were processed

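RNA was measured by sequencing in 8 libraries. The authors deposited whole-number read counts per gene, not normalized. Per the labels' protocols, RNeasy columns and the TruSeq Stranded mRNA kit were used. Per the submitters' processing notes, the tools were TopHat2 (version 2), SAMtools, HTSeq and DESeq2, with the build GRCm38.p4. The strand setting and annotation of that counting are not stated there. Tallies of reads given to no gene stayed out of library sizes: reads in no feature made up 6.63 to 10.8%, ambiguous reads 2.72 to 3.01% and multiply aligned reads 26.2 to 30.6% of the reads listed. At 22330729 to 29975347 counts a library, counting error mattered little for the 10 genes.

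Symbols, coordinates and exon lengths came from GENCODE M21 on GRCm38, which paired 45229 of 46078 identifiers. Aldoa has 2 annotated identifiers, of which 1 is in the table. Tests used edgeR 4.0.16 (R 4.3.3): filterByExpr with a minimum count of 10, TMM scaling, quasi-likelihood F-tests and p-values adjusted by Benjamini-Hochberg over 16495 genes at 0.05. One model had condition and experiment terms (5 residual degrees of freedom), and a second had 4 groups of 2 libraries (4 residual degrees of freedom). DESeq2 1.42.0, limma-voom (limma 3.58.1), other scaling factors, no filter, a replicate block and leaving out libraries were alternatives. On simulated counts for the comparison of conditions, the test recovered 64% of true changes of 1 log2 unit and 98% of changes of 2, over 16144 genes. Within experiment 1 the shares were 26% and 79% over 16128 genes, and for the difference between experiments 3% and 55% over 16124 genes. The simulated libraries shared 1 mean per gene apart from 200 changed genes. They held no other difference between experiments and no library that stood apart, so the shares do not give the power in these data.

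The members and lists were chosen with earlier results of these data known. Besides the members, each list's gene with the highest mean level, those with the lowest and highest log2 fold change between conditions, up to 5 genes passing in any comparison, and the 5 genes most like the members were named. The genes in paralogue ratios (Ldhb, Pfkl, Bnip3l), Slc2a3 and the markers fall outside that rule and were named with their values known.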

Additional observations from a re-analysis of the deposited data

Results flagged for a closer look

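Aldoa in experiment 1 held a library far from the others. Treg-depleted replicate 2 was at 622 CPM, against 353 to 379 CPM in the other 3 libraries of that experiment, and its gap to the nearest of them took up 0.903 of the range (critical value 0.829 for 4 libraries). It was the 1 such case among 40 groups of 4 libraries examined for the 10 genes, where chance gives about 1 in 20.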

How the results depend on the processing

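Counts of passing genes depended on the test, while the signs of the clearer differences did not. With no filter on low counts, 820 genes and 1 of the 10 members (Vegfa) passed between conditions, 2443 genes and 6 members between experiments, 1152 genes and 1 member in experiment 1, 132 genes in experiment 2 and 534 for the difference between experiments. DESeq2 called 82 genes and 1 member (Vegfa) between conditions, 2133 genes and 6 members between experiments, 721 genes and 1 member in experiment 1, 1 gene in experiment 2 and 182 for the difference. The cause was not tested. Between experiments, 0 genes passed with no condition term, and 1058 genes and 2 members (Aldoa and Vegfa) passed when averaged over the 4-group model. Without both Xist-bearing libraries, 2 genes passed between experiments, 487 genes and 1 member (Vegfa) in experiment 1 and 89 genes for the difference. Without both libraries with few genes detected, 0 genes passed between experiments and 570 genes and 1 member (Vegfa) in experiment 1.

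Leaving out 1 library at a time gave 0 to 651 genes and 0 to 1 members (Bnip3) between experiments, 0 to 442 genes and 0 to 1 members (Vegfa) in experiment 1, 0 to 9 genes for the difference between experiments, and 0 genes between conditions and in experiment 2. The 651 genes came without Treg-sufficient replicate 1, the 442 without Treg-depleted replicate 2, and the 0 between experiments without Treg-depleted replicate 2 or 4 or Treg-sufficient replicate 2, so the Hk1 call ended there. In analyses that leave a group with 1 library, that library is assumed to vary like the other groups. In the 17 alternatives between experiments, Slc2a1 (-1.26 to -0.47), Pfkp (-0.66 to -0.33), Aldoa (-0.78 to -0.44), Ldha (-0.79 to -0.40), Vegfa (at most -0.60) and Bnip3 (-0.88 to -0.60) kept their sign. Signs were mixed between conditions for Slc2a1, Hk2, Aldoa and Ldha.

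With the letter of the library title as a replicate block in place of the experiment, 0 genes and 0 members passed between conditions, and the Vegfa value was 0.79. Same-lettered libraries deviated from their condition means with correlations of 0.193 to 0.439, but from the means of condition and experiment with -0.259 and -0.232. With 2 libraries of each condition in an experiment, their deviations mirror each other, and crossing the letters only turns the sign. These correlations therefore cannot decide whether the letters mark pairs. A block with the letters crossed within each experiment, chosen after seeing the data, also gave 0 genes and 0 members.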
